A study of Danio rerio with 9 samples.

Results

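Chemokines are small secreted proteins that direct the movement of leukocytes and of some migrating tissue cells. They act through G protein-coupled receptors, and atypical receptors of the same family take chemokines up without the usual signal and so shape their gradients. In the gut they place lymphocytes along the epithelium and call neutrophils and macrophages to sites of damage. Fish carry many tandem copies of the ligand genes, several with no simple counterpart in mammals. Chemokine and chemokine receptor genes were described here in zebrafish intestine. They were taken by name: CC and CXC ligands (ccl, cxcl), their receptors (ccr, cxcr, xcr1) and the atypical receptors (ackr). The rule found 77 genes among the 26983 rows of the count table, 51 ligands and 26 receptors, and the same 77 in the FPKM table.

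RNA from intestine was sequenced in 9 libraries, 3 each of groups coded D3, SBM and FM. The series title concerns enteritis from soybean meal in zebrafish and its treatment with β,β-dimethylacryloyl shikonin, a plant naphthoquinone derivative. What the codes stand for is not spelled out, and the labels give no strain, age, sex, diet, dose or time for any group. They do not say whether a library came from 1 fish or a pool, so each p-value reflects the spread of these libraries alone and that spread may be technical. SBM was set against FM, and D3 against SBM and FM.

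Total counts were 34436497 to 36203230 per library, and 72 to 74 of the 77 genes had at least 1 count in each. Intestinal markers were present in every library, with the enterocyte gene fabp2 at 1317 to 5475 CPM (counts scaled to 1000000 per library with TMM factors). Some libraries stood apart in markers of other organs. The egg coat gene zp3 had 447 CPM in the third D3 library and 569 CPM in the first SBM library, while it had 7.54 to 69.3 CPM elsewhere. The 12 ovary and oocyte genes found summed to 153.7 to 2301 CPM in D3, 105.5 to 2342 CPM in SBM and 32.4 to 83.9 CPM in FM. In this sum every D3 and SBM library lay above every FM library. The part of ovary tissue in the comparisons with FM was not tested. The liver transferrin gene tfa was at 6664 and 13170 CPM in D3 libraries 1 and 2 and at 14240 CPM in SBM library 2, against 146 to 1623 CPM in the other 6. The 8 exocrine pancreas genes found summed to 45180 to 72520 CPM in D3, 56800 to 116300 CPM in SBM and 92630 to 124600 CPM in FM. D3 lay below FM in this sum, and SBM overlapped FM. All 8 had a log2 fold change below 0 in SBM against FM (background 50.5%) and in D3 against FM (background 47.6%). The part of pancreas tissue in the chemokine values was not tested. The gut marker lists were also mostly below 0. In SBM against FM this held for 11 of 11 absorptive enterocyte, 10 of 11 smooth muscle and fibroblast and 7 of 9 endothelium genes (background 50.5%). In D3 against FM it held for 11, 10 and 8 of them (background 47.6%). Of 12 hepatocyte genes, 11 and 12 were above 0, and of 12 ovary and oocyte genes, all in both (background 49.5% and 52.4%). The part of gut tissue in the chemokine values was not tested. D3 library 3 and SBM library 1 were closer to each other (Spearman 0.975 across 19450 genes, which are not independent) than to the other libraries of their own groups, where the values were 0.853 to 0.92. The labels were kept as given.

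Levels between genes are compared in FPKM, which the authors scaled by gene length. The ligand ccl19b was the most abundant gene of the family, with a mean of 665 FPKM over the 9 libraries and a range of 206 to 1089 FPKM. CCL19 is, in mammals, the ligand of CCR7 that draws T cells and mature dendritic cells to lymphoid tissue. Next came ccl25a (83.1 FPKM), cxcl19 (71.1 FPKM), ccl19a.1 (59.9 FPKM) and ccl25b (43.2 FPKM). The ranges of these 4 genes over libraries overlapped. Their order differed between libraries, except that ccl25a exceeded ccl25b in every library. By raw counts, ccl19b alone took 40.4% to 50.4% of the counts of the family in D3, 25.3% to 47.2% in SBM and 41.9% to 58.1% in FM. Receptor levels were lower: ccr9a, a receptor for CCL25 that in mammals directs lymphocytes to the small intestine, led with 17.0 FPKM. It was followed by cxcr4b (8.34 FPKM), cxcr3.2 (7.86 FPKM) and ccr7 (7.30 FPKM), whose ranges over libraries overlapped. A mean of 10 FPKM or more was reached by 21 of 51 ligands and 1 of 26 receptors, and 15 ligands and 13 receptors were under 1 FPKM. The lowest included ccl33.2 and ccl39.6, each with 1 count in all 9 libraries together.

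**Figure D1:**
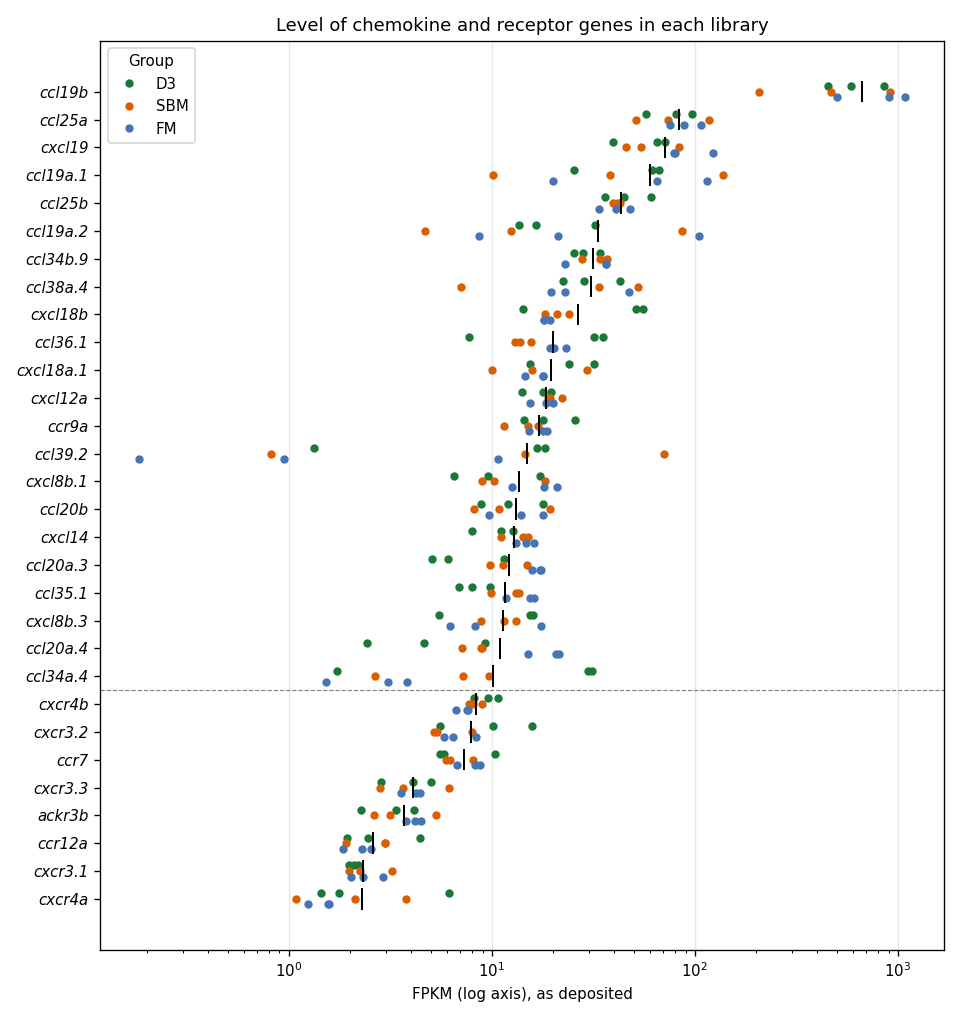
Level of each gene in each library in FPKM (log axis). Rows above the dashed line are the 22 genes with a mean of 10 FPKM or more, rows below it the next 8 receptors. Points are libraries, coloured by group, and the black bar is the mean of 9 libraries. The gene ccl19b stands at 206 to 1089 FPKM, and ccl39.2 spreads most, from 0.182 to 70.2 FPKM.

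Many of the genes lie side by side in the zebrafish genome. In the gene order of RefSeq (assembly GRCz12tu, used for names and neighbours only), 74 of 77 names matched, and 44 of these lay in 15 groups with at most 5 other protein-coding genes between neighbours. The largest group held 7 genes, ccl33.3, ccl33.2, ccl39.6, ccl39.3, ccl39.1, ccl39.2 and ccl35.1. The next held ccl34b.1, ccl34b.4, ccl34b.8, ccl34b.9, cxcl32b.1 and ccl32b.3. Neighbouring copies can be near-identical, and how reads that fit several copies were counted is not given in the sources used here. Values of single copies within ccl19a, ccl20a, ccl34b, ccl38a, ccl39, cxcl8b, cxcl11, cxcr3 and xcr1b are therefore uncertain, and sums over these copies are given too.

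Across the 3 comparisons no chemokine or receptor gene passed the test. Of the 77 genes, 65 passed the filter on low counts (43 ligands and 22 receptors), and the other 12 had totals of 1 to 157 counts over all libraries. EdgeR's quasi-likelihood test, fitted on 19450 genes with Benjamini-Hochberg adjustment, called 0 of 65 in each comparison. It also called 0 of all genes, a background of 0%. At an unadjusted p under 0.05 there were 4 of 65 genes in SBM against FM (background 8.94%), all lower (background 3.41%). D3 against SBM had 1 (background 2.07%), which was higher (background 0.746%). D3 against FM had 13 (background 15.2%), 11 lower (background 7.14%) and 2 higher (background 8.05%). Limma-voom called 0 in each, and also 0 of all genes (background 0%). DESeq2 called 1 of 65 for SBM against FM (background 1.22%), 0 for D3 against SBM (background 0.0257%) and 4 for D3 against FM (background 4.72%). In bulk tissue, fewer cells of a type and less RNA per cell cannot be told apart.

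Most genes of the family had lower values than FM in both other groups. In SBM against FM, 52 of 65 genes had a log2 fold change below 0, or 80%, where 50.5% of all genes tested did, and the median was −0.39 beside −0.01 for all genes. In D3 against FM, 46 of 65 were below 0 (70.8%, background 47.6%), with a median of −0.37 beside 0.04. In D3 against SBM, 36 of 65 were below 0 (55.4%, background 45.3%), with a median of −0.08 beside 0.03. The first and second of these comparisons share the FM libraries, and each of the 3 shares a group with the others. Every SBM library lay below every FM library for 10 genes (15.4%, background 10.3%) and above for 1 (1.54%, background 9.56%). Every D3 library lay below every FM library for 17 genes (26.2%, background 13.6%) and above for 0 (background 12.8%). Every D3 library lay below every SBM library for 1 gene, ccl34b.4 (1.54%, background 2.56%), and above for 1, ccl34b.8 (1.54%, background 2%). Scaling by library size alone moved the median of all genes to 0.26 in SBM against FM and 0.30 in D3 against FM. The number of genes below 0 was then 38 (58.5%, background 29.2%) and 39 (60%, background 30.5%). In SBM against FM 5 genes then lay below with no overlap (7.69%, background 2.9%) and 3 above (4.62%, background 12.5%). In D3 against FM 13 lay below (20%, background 5.94%) and 4 above (6.15%, background 24.6%). Leaving out a library also changed how many genes passed the filter. Without SBM library 2 the number with SBM below FM and no overlap was 21 of 67 (31.3%, background 22.3%). It was 26 of 66 without SBM library 3 (39.4%, background 18.9%) and 16 of 67 without FM library 3 (23.9%, background 14.3%). Without D3 library 1 the number with D3 below FM was 26 of 67 (38.8%, background 20.9%). For D3 below SBM the number was 8 of 67 without D3 library 1 (11.9%, background 6.23%) and 4 of 67 without D3 library 2 (5.97%, background 5.35%). It was 12 of 65 without SBM library 1 (18.5%, background 9.77%), and 2 without any other single library. That count of 2 was 2.99% or 3.03%. The background beside it was 10.6% without D3 library 3 and 2.48% to 5.24% without the rest. The counts above also moved with single libraries. For D3 above FM the count was 9 of 66 genes without D3 library 3 (13.6%, background 19%) and 3 of 67 without FM library 3 (4.48%, background 15.2%). It was 1 of 67 without D3 library 1, FM library 1 or FM library 2 (1.49%, background 19.7%, 17% and 16.5%). For D3 above SBM it was 8 of 66 without D3 library 3 (12.1%, background 10.4%) and 5 of 67 without SBM library 2 (7.46%, background 5.75%). It was 3 of 66 without SBM library 3 (4.55%, background 4.37%) and 2 of 67 without D3 library 1 (2.99%, background 3.71%). For SBM above FM it was 2 or 3 without any single library (2.99% to 4.48%, background 8.92% to 20.4%).

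Both ligands and receptors took part. In SBM against FM the median log2 fold change was −0.39 over 43 ligands and −0.36 over 22 receptors. In D3 against FM it was −0.41 and −0.37. The median over the genes of the centred log2 CPM in a library, a level, was 0.01, 0.07 and −0.57 in D3, −0.46, 0.07 and 0.06 in SBM, and 0.36, 0.14 and 0.29 in FM. D3 library 3 and SBM library 1, the pair rich in egg transcripts, had the lowest levels, and the FM libraries the highest. For 20 of 65 genes these 2 libraries held the lowest 2 values (30.8%, where 19.4% of all genes tested did), and for 2, ccl38a.3 and cxcr4a, the highest 2 (3.08%, where 27.3% of all genes did). Among the 20 were cxcl8a, cxcl8b.1, cxcl19, ccr7, cxcr3.1, cxcr3.2 and cxcr3.3. The part of these libraries' other tissue in the levels was not tested. Without them, 44 of 64 genes were below 0 in SBM against FM (68.8%, background 48.9%) and 40 of 64 in D3 against FM (62.5%, background 49.5%). D3 then lay above FM with no overlap for 9 of 64 genes (14.1%, background 20%) and below FM for 17 (26.6%, background 18.2%). SBM lay above FM for 1 (1.56%, background 12.1%) and below FM for 10 (15.6%, background 11.4%). Leaving these libraries out did not even out the ovary and oocyte sum. The sum was still 160 and 153.7 CPM in D3 and 105.5 and 298.3 CPM in SBM, against 32.4 to 83.9 CPM in FM.

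**Figure D2:**
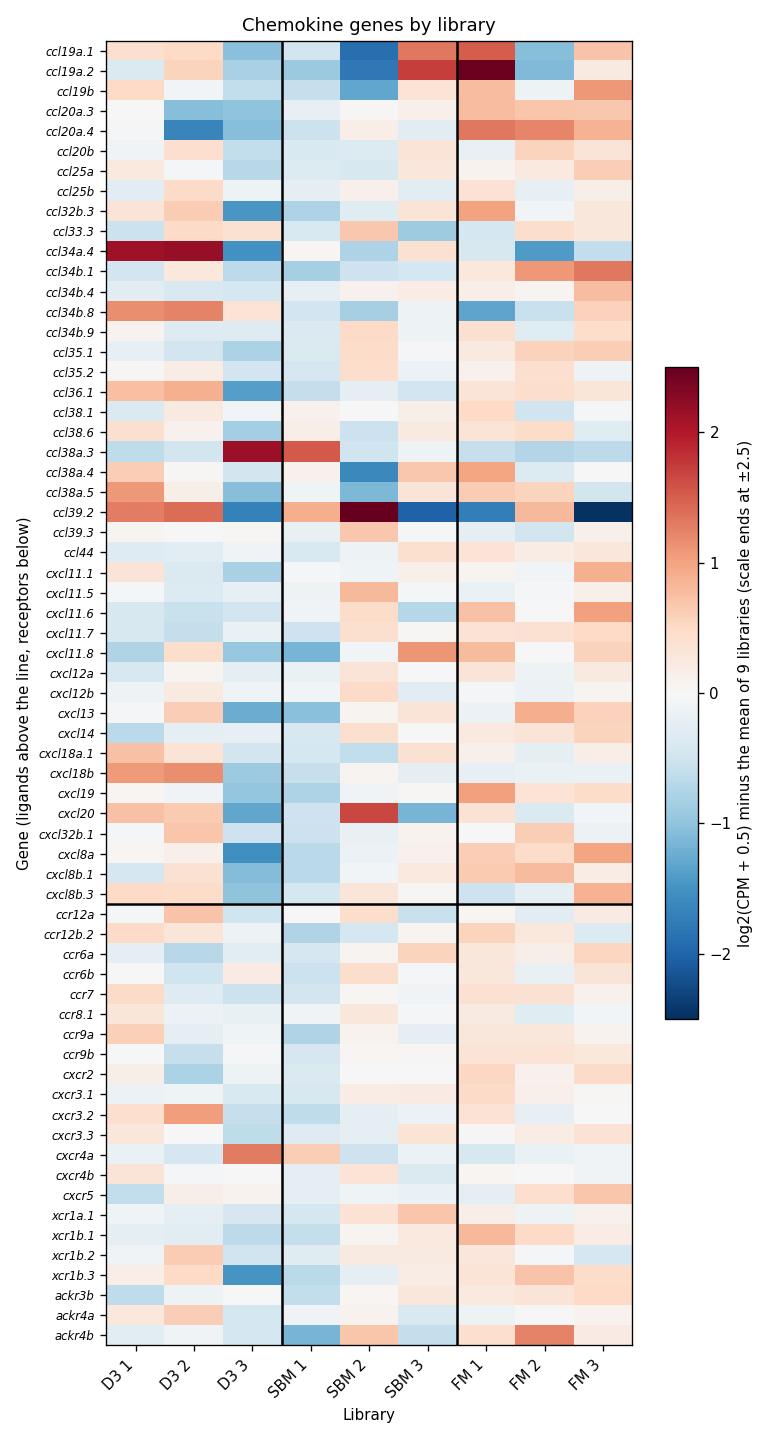
Centred level of the 65 tested genes (rows, ligands above the horizontal line and receptors below) in the 9 libraries (columns, D3, SBM and FM separated by vertical lines). Colour is log2(CPM + 0.5) minus the gene's mean over 9 libraries. The columns of D3 library 3 and SBM library 1 are mostly blue and the FM columns mostly red, while ccl38a.3 and cxcr4a are red in D3 library 3 and SBM library 1.

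The 2 ccl20a copies, but not ccl20b, had among the lowest unadjusted p-values of the family. In mammals CCL20 is made by gut epithelium and attracts CCR6-bearing dendritic cells, B cells and type 17 T cells. The gene ccl20a.4 was at 5.54, 1.45 and 2.44 CPM in D3, 3.75, 6.40 and 4.57 CPM in SBM, and 14.8, 13.8 and 10.7 CPM in FM. No D3 or SBM library reached the lowest FM library. Its log2 fold change was −1.42 ± 0.47 (SE) in SBM against FM and −2.06 ± 0.48 in D3 against FM, with edgeR unadjusted p = 0.0152 and 0.00226 and adjusted p = 0.541 and 0.32. Its neighbour ccl20a.3 was at 7.09, 3.12 and 3.31 CPM in D3, 6.14, 7.28 and 7.80 CPM in SBM, and 12.5, 11.9 and 11.61 CPM in FM. The FM libraries again lay apart, with log2 fold changes of −0.76 ± 0.33 in SBM against FM and −1.41 ± 0.34 in D3 against FM (edgeR adjusted p = 0.541 and 0.32).

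The sum of the 2 copies does not depend on how counted reads were split between them. Reads left out or counted more than once would still affect it. The sum was 12.6, 4.57 and 5.75 CPM in D3, 9.89, 13.7 and 12.4 CPM in SBM, and 27.3, 25.7 and 22.3 CPM in FM, and neither D3 nor SBM overlapped FM. In D3 against SBM the log2 fold changes were −0.65 ± 0.33 for ccl20a.3 and −0.64 ± 0.47 for ccl20a.4, and the libraries overlapped. The copy ratio does depend on that split: ccl20a.3 over ccl20a.4 was 1.28 to 2.15 in D3, 1.14 to 1.71 in SBM and 0.84 to 1.09 in FM. The more distant ccl20b averaged 3.80 ± 1.502 CPM in D3, 3.61 ± 1.19 in SBM and 4.80 ± 1.31 in FM (SD, n = 3 each), and its groups overlapped. The receptor ccr6a was at 1.80, 1.18 and 1.73 CPM in D3, 1.52, 2.32 and 3.49 CPM in SBM, and 2.80, 2.51 and 3.43 CPM in FM. D3 lay below FM, while SBM spanned both (D3 against FM −0.89 ± 0.37, edgeR adjusted p = 0.327). The absorptive enterocyte markers, listed as 11 genes, summed to 11680 to 22290 CPM in D3, 10390 to 25310 CPM in SBM and 26610 to 36010 CPM in FM, and their part in the CCL20 values was not tested.

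Among the CXC ligands next described, cxcl8a and cxcl19 lay wholly below FM in both D3 and SBM, and cxcl8b.1, cxcl8b.3 and cxcl18b overlapped it. Zebrafish Cxcl8a and Cxcl8b draw neutrophils through Cxcr2, and Cxcl18b is a fish chemokine with a similar action. The gene cxcl8a was at 6.15, 6.52 and 1.73 CPM in D3, 3.53, 5.32 and 6.46 CPM in SBM, and 9.33, 8.33 and 12.2 CPM in FM. FM lay above all other libraries. The copies cxcl8b.1 and cxcl8b.3 together were at 13.3, 18.3 and 6.01 CPM in D3, 8.68, 14.3 and 15.5 CPM in SBM, and 17.6, 20.1 and 18.99 CPM in FM. SBM did not overlap FM in this sum, and D3 did. Within it, cxcl8b.3 differed little, at 4.91 ± 2.56 CPM in D3, 4.43 ± 1.24 in SBM and 5.05 ± 2.99 in FM (SD, n = 3 each), and cxcl8b.1 was at 7.63 ± 4.08, 8.41 ± 2.73 and 13.85 ± 3.00 CPM in the same groups.

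The receptor cxcr2 was low, at 2.08, 0.849 and 1.63 CPM in D3, 1.31, 1.80 and 1.84 CPM in SBM, and 2.83, 1.99 and 2.75 CPM in FM. SBM lay below FM, and D3 overlapped both. The ligand cxcl19, a neighbour of the cxcl8b genes, was at 39.8, 36.2 and 19.6 CPM in D3, 22.4, 36.6 and 39.5 CPM in SBM, and 79.5, 49.3 and 53.3 CPM in FM. No D3 or SBM library reached FM, and the log2 fold change was −0.89 ± 0.34 in SBM against FM and −0.93 ± 0.34 in D3 against FM (edgeR unadjusted p = 0.0301 and 0.0247, adjusted p = 0.541 and 0.32). The gene cxcl18b had another pattern. It was at 28.5, 30.5 and 6.95 CPM in D3, 8.88, 14.0 and 11.2 CPM in SBM, and 11.5, 11.8 and 11.9 CPM in FM. D3 libraries 1 and 2 were the highest of all 9 and D3 library 3 the lowest (D3 against SBM 0.95 ± 0.48, edgeR unadjusted p = 0.0797, adjusted p = 1).

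Neutrophil markers stood as follows. The myeloperoxidase gene mpx was at 475, 448 and 35.02 CPM in D3, 140, 51.3 and 964 CPM in SBM, and 139, 47.8 and 1327 CPM in FM, with high and low libraries in every group. The lysozyme gene lyz was at 22.7, 16.2 and 9.99 CPM in D3, 15.4, 14.7 and 7.08 CPM in SBM, and 9.92, 8.75 and 9.67 CPM in FM, and D3 lay above FM. Of 11 listed neutrophil genes tested, edgeR called 0 (background 0%). In SBM against FM 7 had a log2 fold change above 0 (background 49.5%), with a median of 0.15. In D3 against FM 7 did (background 52.4%), with a median of 0.80. In D3 against SBM 9 did (background 54.7%), with a median of 0.29. There mmp13a and mmp9 were higher at an edgeR unadjusted p under 0.05 (background 0.746%). At an edgeR unadjusted p under 0.05, 4 of the 11 were higher in D3 against FM (mmp13a, mmp9, npsn and csf3r, background 8.05%). There 1 was lower (cpa5, background 7.14%). The collagenase gene mmp13a was at 23.3, 9.20 and 1.17 CPM in D3, 2.83, 3.199 and 1.53 CPM in SBM, and 1.09, 1.63 and 1.52 CPM in FM. D3 libraries 1 and 2 were the highest and D3 library 3 lay within FM (D3 against FM 2.99 ± 0.88, edgeR unadjusted p = 0.00861, adjusted p = 0.32). The gelatinase gene mmp9 was at 9.19, 6.65 and 6.18 CPM in D3, 4.23, 4.05 and 2.03 CPM in SBM, and 1.75, 4.08 and 4.43 CPM in FM. D3 lay above both other groups (D3 against FM 1.102 ± 0.427, edgeR unadjusted p = 0.031, adjusted p = 0.32). In D3 against FM mmp13a, mmp9, npsn and csf3r had the opposite sign to cxcl8a and cxcl19. The list was mixed, since 4 of the 11 genes, cpa5 among them, were below 0 (background 47.6%) as these ligands were. The summed level of the list was 4411 to 5719 CPM in D3, 4940 to 9669 CPM in SBM and 6618 to 10170 CPM in FM, but most of it was cpa5 (3615 to 9471 CPM over the 9 libraries). The gene cpa5 was at 9340 CPM in SBM library 2, 6294 to 9471 CPM in FM and 3615 to 5500 CPM elsewhere. The exocrine pancreas sum was 116300 CPM in SBM library 2, 92630 to 124600 CPM in FM and 45180 to 72520 CPM elsewhere. The part of pancreas tissue in cpa5 was not tested. Neither cpa5, though it was on the list, nor the summed level is read here as a neutrophil level. Whether neutrophil number bears on the ligand values was not tested.

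**Figure D3:**
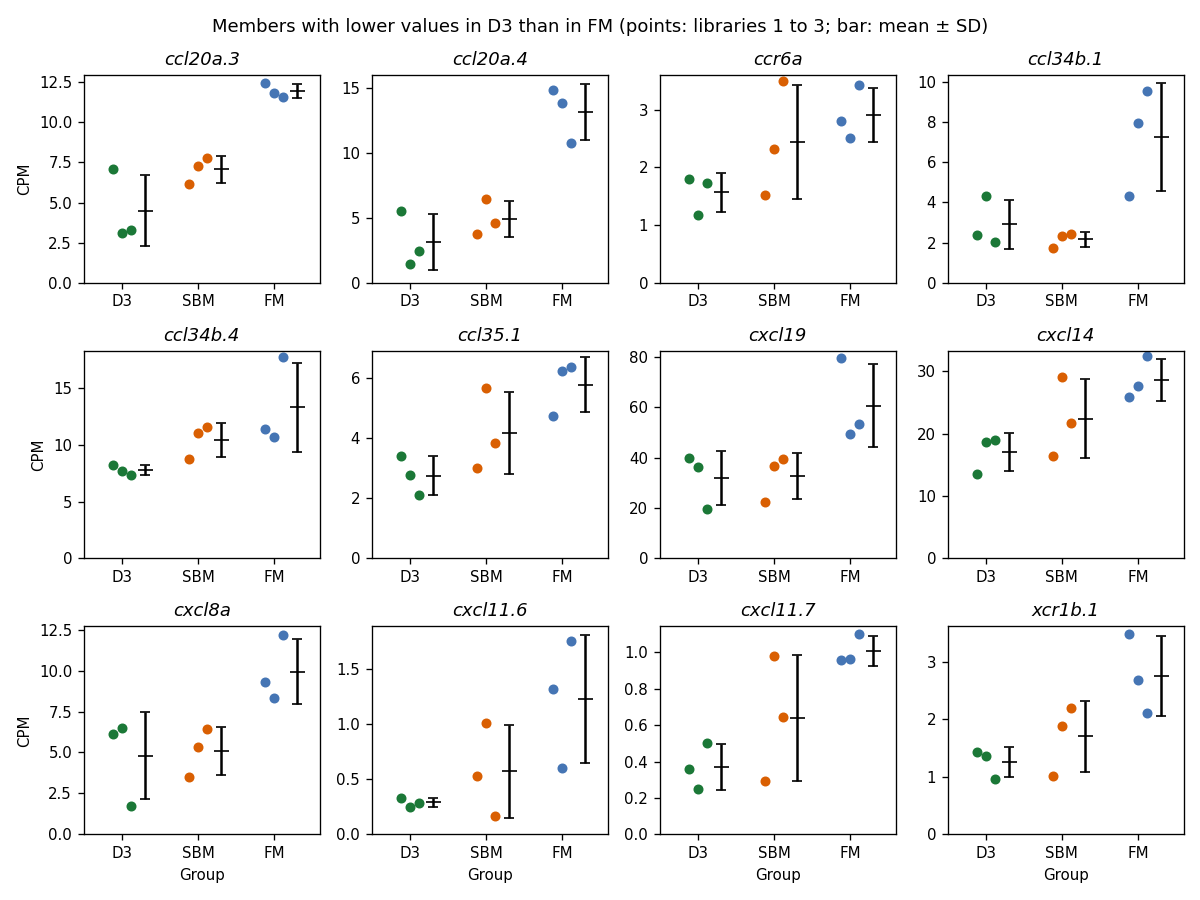
CPM of 12 of the 17 genes whose D3 libraries all lay below the FM libraries. Points are libraries 1 to 3 of D3, SBM and FM, and the bar beside them is the mean ± SD of 3. In ccl20a.3, ccl20a.4, ccl34b.1, cxcl19 and cxcl8a SBM also lies fully below FM, while in the other 7 it overlaps FM.

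For the CCL19 and CCR7 axis the ligand values ranged widely within each group. The gene ccl19b was at 625, 425 and 290 CPM in D3, 298, 181 and 565 CPM in SBM, and 765, 406 and 942 CPM in FM. The groups overlapped, and the log2 fold change was −1.02 ± 0.49 in SBM against FM (edgeR unadjusted p = 0.0706, adjusted p = 0.541). The neighbours ccl19a.1 and ccl19a.2 summed to 67.4, 81.4 and 28.2 CPM in D3, 37.8, 14.9 and 153 CPM in SBM, and 197, 26.4 and 87.1 CPM in FM. SBM library 3 and FM library 1 were the highest, and SBM library 2 and FM library 2 the lowest, with the D3 libraries between them. The receptor ccr7 was steadier, at 12.1, 6.74 and 5.70 CPM in D3, 6.07, 8.68 and 7.97 CPM in SBM, and 11.14, 11.3 and 9.25 CPM in FM. SBM lay below FM, with a log2 fold change of −0.48 ± 0.31 (edgeR adjusted p = 0.567).

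Atypical receptor ACKR4, in mammals a scavenger of CCL19, CCL21 and CCL25, has 2 zebrafish copies that differed in pattern. The gene ackr4b was at 2.71, 3.18 and 2.40 CPM in D3, 1.26, 5.88 and 2.11 CPM in SBM, and 4.75, 8.72 and 4.04 CPM in FM. D3 lay below FM (−1.08 ± 0.56, edgeR adjusted p = 0.361), and SBM library 2 lay within FM. The copy ackr4a averaged 2.90 ± 1.17 CPM in D3, 2.21 ± 0.44 in SBM and 2.40 ± 0.22 in FM (SD, n = 3 each), and its groups overlapped.

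The gut-homing pair of CCL25 and CCR9 was abundant, with overlapping groups for 3 of its 4 genes. The gene ccl25a averaged 49.4 ± 15.3 CPM in D3, 49.2 ± 13.7 in SBM and 67.7 ± 13.3 in FM, and ccl25b averaged 35.8 ± 10.4, 31.6 ± 5.20 and 37.1 ± 7.25 CPM in the same groups (SD, n = 3 each). The groups overlapped for both. The receptor ccr9a was at 46.2, 25.7 and 28.3 CPM in D3, 18.0, 32.7 and 25.7 CPM in SBM, and 37.3, 37.4 and 32.3 CPM in FM. D3 library 1 was the highest and SBM library 1 the lowest. Its log2 fold change was −0.49 ± 0.29 in SBM against FM and −0.10 ± 0.29 in D3 against FM, the last of which was 0.16 with library size alone. The low-level ccr9b was at 1.72, 0.986 and 1.65 CPM in D3, 1.16, 1.80 and 1.77 CPM in SBM, and 2.31, 2.29 and 2.17 CPM in FM, with FM above both groups (−0.63 ± 0.33 in D3 against FM, edgeR adjusted p = 0.361).

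The CXCL12, CXCR4 and ACKR3 axis guides migrating cells in the embryo, and in zebrafish Ackr3b removes Cxcl12a from the path of the lateral line primordium and of germ cells. The gene cxcl12a averaged 24.5 ± 4.17 CPM in D3, 29.1 ± 5.27 in SBM and 31.0 ± 4.80 in FM, and cxcl12b 6.58 ± 1.02, 6.94 ± 2.09 and 6.34 ± 0.50 CPM (SD, n = 3 each). Receptor cxcr4b averaged 14.5 ± 2.21 CPM in D3, 13.0 ± 3.72 in SBM and 13.3 ± 0.69 in FM. Its copy cxcr4a was at 2.63, 2.14 and 8.12 CPM in D3, 4.91, 1.96 and 2.68 CPM in SBM, and 2.14, 2.63 and 2.75 CPM in FM. Its 2 highest values fell in the libraries rich in egg transcripts, where cxcr4a over cxcr4b was 0.604 and 0.435, against 0.114 to 0.258 in the other 7. The scavenger gene ackr3b was at 4.29, 6.35 and 6.92 CPM in D3, 4.38, 7.21 and 8.54 CPM in SBM, and 8.34, 8.84 and 10.1 CPM in FM. D3 lay below FM, and SBM library 3 overlapped it (D3 against FM −0.63 ± 0.31, edgeR adjusted p = 0.345). The other copy, ackr3a, was too low to test.

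Interferon-induced ligands of the CXCL11 group act through CXCR3 on T cells in mammals and on macrophages in zebrafish, where Cxcr3.3 acts as a scavenger of the ligand. The gene cxcl11.6 was at 0.332, 0.246 and 0.288 CPM in D3, 0.532, 1.01 and 0.167 CPM in SBM, and 1.32, 0.604 and 1.75 CPM in FM. D3 lay below FM, from 9 to 12 counts in D3 libraries and 20 to 54 in FM libraries. Its log2 fold change in D3 against FM was −2.07 ± 0.67, and that of cxcl11.7 was −1.43 ± 0.51 (edgeR unadjusted p = 0.014 and 0.0207, adjusted p = 0.32 for each). The gene cxcl11.7 was at 0.36, 0.246 and 0.503 CPM in D3, 0.29, 0.979 and 0.646 CPM in SBM, and 0.956, 0.966 and 1.1 CPM in FM. The 5 cxcl11 genes summed to 4.84, 7.47 and 3.50 CPM in D3, 3.80, 8.23 and 12.2 CPM in SBM, and 11.57, 7.30 and 12.3 CPM in FM. The sum, most of it cxcl11.8 by group mean though not in every library, overlapped between D3 and FM. The copy cxcl11.1 averaged 0.729 ± 0.493 CPM in D3, 0.913 ± 0.124 in SBM and 1.32 ± 0.707 in FM (SD, n = 3 each), and its groups overlapped.

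The first receptor of this group, cxcr3.2, was at 18.7, 29.0 and 9.08 CPM in D3, 8.71, 11.55 and 12.6 CPM in SBM, and 17.9, 11.9 and 14.0 CPM in FM. D3 libraries 1 and 2 were the highest, with a log2 fold change of 0.79 ± 0.39 in D3 against SBM (edgeR unadjusted p = 0.0773, adjusted p = 1). For cxcr3.1 D3 lay below FM, at 5.15 ± 0.59 CPM against 7.13 ± 1.32 CPM, with SBM at 6.13 ± 1.47 CPM (SD, n = 3 each). The gene cxcr3.3 averaged 7.10 ± 2.31 CPM in D3, 7.22 ± 2.02 in SBM and 8.64 ± 1.01 in FM, and its groups overlapped.

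Several further ligands and receptors were lower in D3 than in FM. The mucosal chemokine gene cxcl14 was at 13.5, 18.6 and 19.02 CPM in D3, 16.5, 29.0 and 21.7 CPM in SBM, and 25.9, 27.7 and 32.4 CPM in FM. D3 did not overlap FM (−0.75 ± 0.25, edgeR unadjusted p = 0.0163, adjusted p = 0.32). The fish gene ccl35.1 was at 3.40, 2.77 and 2.11 CPM in D3, 3.00, 5.68 and 3.85 CPM in SBM, and 4.75, 6.25 and 6.37 CPM in FM, again with no overlap between D3 and FM (−1.07 ± 0.32, edgeR adjusted p = 0.32). XCR1 marks cross-presenting dendritic cells in mammals, and its copy xcr1b.1 was at 1.44, 1.37 and 0.958 CPM in D3, 1.02, 1.89 and 2.20 CPM in SBM, and 3.49, 2.69 and 2.103 CPM in FM. D3 lay below FM (−1.14 ± 0.38, edgeR adjusted p = 0.32). Summed over the 3 xcr1b copies, 5.67, 7.39 and 2.16 CPM in D3 overlapped 8.60, 8.78 and 7.02 CPM in FM, while 3.29, 5.45 and 6.77 CPM in SBM did not. The B cell pair of CXCL13 and CXCR5 was low: cxcl13 averaged 3.31 ± 2.18 CPM in D3, 3.12 ± 1.54 in SBM and 5.08 ± 1.93 in FM, and cxcr5 had 2 to 27 counts per library.

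The ccl34b copies, neighbours in the genome, gave both the lowest p of SBM against FM and the lowest of D3 against SBM in the family. The gene ccl34b.1 was at 2.38, 4.30 and 2.04 CPM in D3, 1.74, 2.32 and 2.44 CPM in SBM, and 4.32, 7.94 and 9.54 CPM in FM. SBM lay well below FM, and D3 library 2 just below FM library 1. The log2 fold change was −1.75 ± 0.41 in SBM against FM and −1.32 ± 0.40 in D3 against FM (edgeR unadjusted p = 0.00225 and 0.00987, adjusted p = 0.541 and 0.32). Its copy ccl34b.8 was at 2.63, 2.82 and 1.29 CPM in D3, 0.508, 0.294 and 0.789 CPM in SBM, and 0.0659, 0.453 and 1.59 CPM in FM. D3 lay above SBM, with 54 to 103 counts against 9 to 33, and overlapped FM (D3 against SBM 2.07 ± 0.89, edgeR unadjusted p = 0.047, adjusted p = 1). The gene ccl34b.4 was at 8.19, 7.72 and 7.33 CPM in D3, 8.73, 11.0 and 11.55 CPM in SBM, and 11.4, 10.7 and 17.8 CPM in FM, with D3 below both groups. The sum of the 4 ccl34b genes was 26.2, 24.5 and 20.2 CPM in D3, 20.3, 30.7 and 25.9 CPM in SBM, and 31.97, 28.8 and 45.5 CPM in FM. In the sum D3 lay below FM, and SBM overlapped both. The largest part by group mean was ccl34b.9, whose groups overlapped. It was at 10.7 ± 1.97 CPM in D3, 12.5 ± 4.09 in SBM and 14.2 ± 3.88 in FM (SD, n = 3 each). In SBM library 3 and FM libraries 2 and 3, ccl34b.4 exceeded it.

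**Figure D4:**
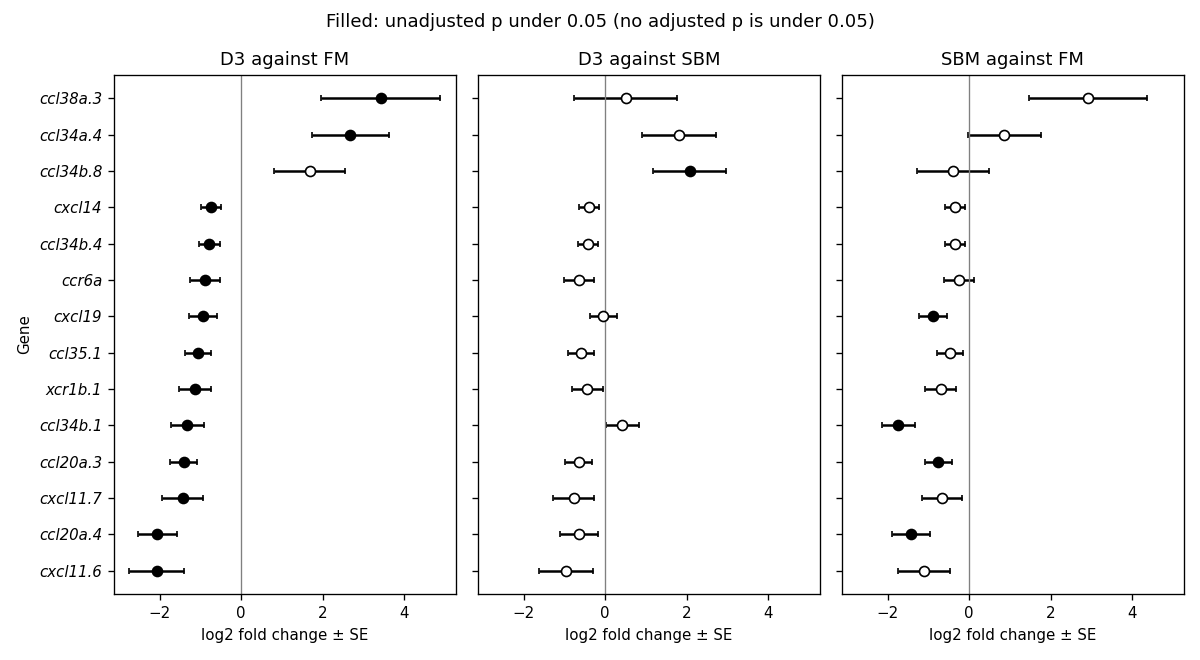
Log2 fold change ± SE of the 14 genes with an edgeR unadjusted p under 0.05 in at least 1 comparison, for D3 against FM, D3 against SBM and SBM against FM on the same axis. Filled points have an unadjusted p under 0.05, and no adjusted p is under 0.05. Of the 14, 11 lie below 0 in D3 against FM, between −2.07 and −0.75, and ccl38a.3, ccl34a.4 and ccl34b.8 lie above it.

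Some ligands had their highest values in libraries that also carried transcripts of liver or ovary, a pattern looked for after the values were seen. For liver its share of the family was near that of all genes, and for ovary (3.08%) far below it (27.3%). The gene ccl39.2 was at 7.53, 8.19 and 0.527 CPM in D3, 5.71, 37.99 and 0.311 CPM in SBM, and 0.494, 5.34 and 0.097 CPM in FM. It spanned 0.182 to 70.2 FPKM, and its highest 3 values fell in the libraries highest in tfa. The 6 ccl39 genes summed to 8.14, 8.87 and 2.49 CPM in D3, 8.08, 39.7 and 0.7415 CPM in SBM, and 0.857, 5.61 and 1.035 CPM in FM. In this sum the same 3 libraries were highest, but SBM library 1 was close to D3 library 1. The same 3 libraries were the highest for cxcl20, at 13.2, 12.4 and 2.80 CPM in D3, 5.20, 25.6 and 3.16 CPM in SBM, and 10.02, 5.83 and 7.25 CPM in FM. They were also the highest for cxcl18b, so that 3 of 65 genes had this pattern (4.62%), a share near that of all genes tested (3.78%). The gene ccl34a.4 was high in the D3 libraries of this set but not in SBM library 2, at 15.4, 16.2 and 0.791 CPM in D3, 3.29, 1.67 and 4.28 CPM in SBM, and 2.31, 0.875 and 1.91 CPM in FM. Its log2 fold change was 2.67 ± 0.94 in D3 against FM (edgeR unadjusted p = 0.0208, adjusted p = 0.32), and −1.17 without the 3 libraries, where only D3 library 3 is left in its group. The gene ccl36.1 was likewise at 25.3, 28.0 and 5.39 CPM in D3, 9.60, 12.4 and 10.6 CPM in SBM, and 18.6, 20.4 and 18.3 CPM in FM. SBM lay below FM for it, and D3 held both the highest values and the lowest.

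The libraries rich in egg transcripts held the highest values of ccl38a.3, at 0.138, 0.219 and 3.83 CPM in D3, 2.35, 0.196 and 0.407 CPM in SBM, and 0.165, 0.0906 and 0.129 CPM in FM. Its abundant neighbour ccl38a.4 did not share this, at 27.0, 17.8 and 12.5 CPM in D3, 18.7, 5.38 and 28.1 CPM in SBM, and 34.8, 13.7 and 17.2 CPM in FM. The 3 ccl38a genes summed to 29.7, 19.1 and 16.5 CPM in D3, 21.9, 5.74 and 29.8 CPM in SBM, and 36.7, 15.4 and 17.9 CPM in FM. The groups overlapped in this sum. Every SBM library lay above FM for ccl38a.3, with 97, 6 and 17 counts in SBM and 5, 3 and 4 counts in FM. Its log2 fold change of 3.42 ± 1.46 in D3 against FM (edgeR unadjusted p = 0.0454, adjusted p = 0.327) was 0.45 without D3 library 3. The genes ccl39.7 and ccr11.1, too low to be tested, had most of their counts in the same libraries. For ccl39.7 D3 library 3 had 61 counts and SBM library 1 had 76, with 0 to 10 elsewhere, and for ccr11.1 SBM library 1 had 91 counts, with 0 to 7 elsewhere. The part of ovary tissue in these values was not tested.

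**Figure D5:**
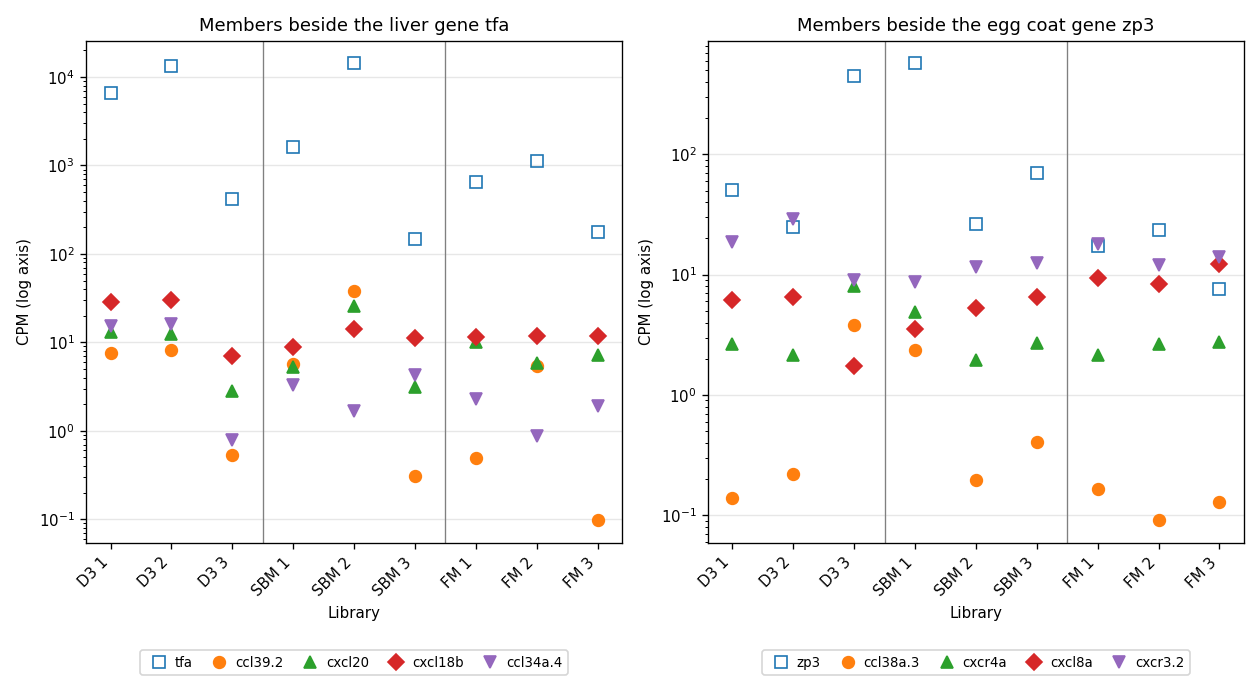
CPM (log axis) in each library of genes beside a liver marker (tfa, left) and an egg coat marker (zp3, right), both as open squares. On the left, ccl39.2, cxcl20 and cxcl18b are highest in D3 libraries 1 and 2 and SBM library 2, as tfa is, while ccl34a.4 is high only in D3 libraries 1 and 2. On the right, ccl38a.3 and cxcr4a are highest in D3 library 3 and SBM library 1, as zp3 is, and cxcl8a and cxcr3.2 are lowest there.

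Genes that carry the chemokine signal inside the cell were listed too. Of 47 listed genes for G protein subunits, arrestins, kinases and regulators of actin, 40 were tested. EdgeR called 0 in each comparison, with 3 of 40 at an unadjusted p under 0.05 for SBM against FM (background 8.94%), 2 for D3 against SBM (background 2.07%) and 7 for D3 against FM (background 15.2%). The median log2 fold change was −0.24, 0.08 and −0.12 in these comparisons. The G protein subunit gene gng2 averaged 19.3 ± 4.37 CPM in D3, 21.0 ± 5.30 in SBM and 34.5 ± 5.22 in FM, and the actin regulator gene wasb 19.96 ± 5.01, 20.2 ± 1.54 and 29.6 ± 3.25 CPM (SD, n = 3 each). The gene rgs2, which shortens G protein signals, had the reverse order, at 6.25 ± 0.96 CPM in D3, 4.77 ± 0.79 in SBM and 3.13 ± 0.17 in FM. The actin pathway gene elmo1 averaged 31.8 ± 3.99 CPM in D3, 26.6 ± 4.57 in SBM and 21.9 ± 1.46 in FM, and gnai2b, for an inhibitory G protein subunit, 17.3 ± 5.74, 14.8 ± 7.07 and 8.43 ± 1.86 CPM. The subunit genes gnb1a and gnb2 had the lowest means in D3, with 71.2 ± 7.31 and 4.01 ± 0.42 CPM in D3, 81.5 ± 9.35 and 5.83 ± 1.02 CPM in SBM, and 95.4 ± 5.44 and 6.55 ± 0.65 CPM in FM. The arrestin gene arrb1 was under 1 CPM, at 0.193 ± 0.147 in D3, 0.489 ± 0.150 in SBM and 0.233 ± 0.008 in FM.

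Of 29 listed cytokines and transcription factors upstream of chemokine genes, 24 were tested and 0 were called. In SBM against FM 19 were below 0 (background 50.5%), with a median of −0.26, and in D3 against FM 19 (background 47.6%), with a median of −0.28. The epithelial repair cytokine gene il22 averaged 1.82 ± 0.96 CPM in D3, 1.92 ± 0.83 in SBM and 5.48 ± 1.70 in FM (SD, n = 3 each; D3 against FM −1.59 ± 0.52, edgeR adjusted p = 0.32). The interferon signalling gene stat1b averaged 77.1 ± 23.3 CPM in D3, 72.4 ± 24.8 in SBM and 160 ± 47.2 in FM. The gene il17a/f3, a cytokine gene of the interleukin 17 group, averaged 0.32 ± 0.16 CPM in D3, 1.01 ± 0.54 in SBM and 0.98 ± 0.22 in FM. The tumour necrosis factor genes tnfa and tnfb averaged 0.837 ± 0.390 and 3.09 ± 1.45 CPM in D3, 1.51 ± 0.975 and 2.44 ± 0.470 CPM in SBM, and 2.59 ± 1.25 and 5.34 ± 0.887 CPM in FM. Of 23 other attractants and adhesion molecules, 19 were tested and 0 called, with medians of −0.05 in SBM against FM, 0.15 for D3 against SBM and 0.28 for D3 against FM. Among them the macrophage cytokine gene mif averaged 39.3 ± 5.53 CPM in D3, 32.9 ± 4.77 in SBM and 26.05 ± 1.67 in FM. The gene lta4h, whose enzyme makes the neutrophil attractant leukotriene, averaged 183 ± 62.1 CPM in D3, 105 ± 20.2 in SBM and 151 ± 19.04 in FM.

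Leukocyte markers were also measured. The 12 T and NK lymphocyte genes summed to 81.2, 64.7 and 54.8 CPM in D3, 51.0, 64.0 and 77.6 CPM in SBM, and 88.5, 90.2 and 86.5 CPM in FM, and FM lay above all other libraries. The T cell co-receptor gene cd4-1 was at 5.43, 6.90 and 4.29 CPM in D3, 3.73, 3.46 and 3.71 CPM in SBM, and 7.18, 6.52 and 8.05 CPM in FM. SBM lay below FM and below D3 (SBM against FM −0.997 ± 0.244, edgeR unadjusted p = 0.00308, adjusted p = 0.541). The co-receptor gene cd8a was at 1.55, 1.97 and 3.50 CPM in D3 and 2.395, 3.23 and 3.37 CPM in SBM, which overlapped. In FM cd8a was at 4.35, 4.77 and 7.08 CPM, above both. All 12 genes of the list were below 0 in SBM against FM (background 50.5%), with a median of −0.43. In D3 against FM 11 were below 0 (background 47.6%), with a median of −0.4. In D3 against SBM 7 were below 0 (background 45.3%) and 5 above. The summed receptors of the chemokine family were at 142, 125 and 98.6 CPM in D3, 83.3, 123 and 111 CPM in SBM, and 141, 136 and 129 CPM in FM, with SBM below FM. The 13 macrophage genes found summed to 1398 to 3194 CPM in D3, 1229 to 2753 CPM in SBM and 2010 to 2496 CPM in FM, and the 7 B lymphocyte genes to 37.0 to 60.0, 29.8 to 51.5 and 44.6 to 60.4 CPM. In SBM against FM 12 of 13 macrophage and 5 of 5 B lymphocyte genes tested were below 0 (background 50.5%). Their medians were −0.47 and −0.31. In D3 against FM 8 of 13 and 3 of 5 were below 0 (background 47.6%), with medians of −0.11 and −0.06. In D3 against SBM 10 of 13 and 4 of 5 were above 0 (background 54.7%), with medians of 0.19 and 0.25. None of the listed genes found was at 0 in all libraries. Whether leukocyte number bears on the chemokine values was not tested.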

How the data were processed

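Per the labels' protocols, total RNA from zebrafish intestine (1.3 µg a library) was made into libraries with a SMARTer mRNA kit. The authors deposited raw counts per gene and FPKM. Each deposited FPKM equals the count over 1 length per gene and the library total, within 0.00012%. The sources used here do not state the aligner, counter, build, annotation or strandedness.

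Groups were read from titles. The main test was edgeR 4.0.16 (R 4.3.3): filterByExpr with a minimum count of 10 (19450 of 26983 genes), TMM factors (0.846 to 1.204), and 1 quasi-likelihood fit of 9 libraries with 6 residual degrees of freedom. Tests were two-sided and adjusted over all genes tested, with a threshold of 0.05. SE is the log2 fold change over the square root of F. Alternatives used limma 3.58.1, DESeq2 1.42.0, other filters and scalings, a replicate block, and fits without single libraries or without those rich in oocyte or liver transcripts.

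Members and lists were chosen with earlier results of these data known. Values per library, or means ± SD, are given for genes with an unadjusted p under 0.05, the 4 largest changes per comparison, the 10 highest in FPKM and fixed ligand and receptor pairs. Promoters and proteins were not analysed here.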

Additional observations from a re-analysis of the deposited data

How the results depend on the processing

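Each comparison was refitted under 18 alternatives, and counts of genes below 0, or below or above without overlap, added after seeing the data, under 12. EdgeR called 0 family members under all of them except the fit without the 3 libraries rich in liver transcripts, which left 1 D3 library, assumed to vary like the other groups. There it called 5 of the family and 2053 of all genes in D3 against FM. DESeq2 called 238 of all genes and 1 of the family for SBM against FM, 5 and 0 for D3 against SBM, and 918 and 4 in D3 against FM. With DESeq2, ccl34b.1 passed in SBM against FM (adjusted p = 0.0367, range over alternatives 0.0367 to 1). In D3 against FM, ccl20a.3, ccl20a.4, ccl34a.4 and ccl35.1 passed with DESeq2 (adjusted p = 0.0151, 0.00824, 0.0455 and 0.0478, each with a highest value of 0.588).

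The family median moved to −0.11 in SBM against FM with library size alone, while that of all genes moved to 0.26. Without the 3 liver-rich libraries it was −0.60 for D3 against SBM and −0.94 for D3 against FM, each resting on D3 library 3 alone. Leaving out 1 library gave medians of −0.57 to −0.27 for SBM against FM, −0.25 to 0.14 for D3 against SBM and −0.53 to −0.23 for D3 against FM.

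With library size alone the number of genes below with no overlap was 5 in SBM against FM (7.69%, all genes 2.9%) and 2 in D3 against SBM (3.08%, all genes 2.63%). The number above was 3 in SBM against FM (4.62%, all genes 12.5%) and 4 in D3 against FM (6.15%, all genes 24.6%). Without the 2 oocyte-rich libraries D3 lay below SBM for 13 genes (20.3%, all genes 19.1%) and above SBM for 8 (12.5%, all genes 14.8%). D3 then lay below FM for 17 (26.6%, all genes 18.2%) and above FM for 9 (14.1%, all genes 20%). SBM lay below FM for 10 (15.6%, all genes 11.4%) and above FM for 1 (1.56%, all genes 12.1%). Without the 3 liver-rich libraries the counts below were 21 (SBM against FM), 38 (D3 against SBM) and 54 (D3 against FM), with 20.3%, 32.6% and 42.5% of all genes, and those above were 3, 11 and 3, with 21.7%, 33.1% and 37.5% of all genes. Smaller groups overlap less, and without the liver-rich libraries both D3 comparisons rest on D3 library 3 alone. Leaving out 1 library gave 10 to 26 below for SBM against FM (14.9% to 39.4%, all genes 10.3% to 22.3%). It gave 2 to 3 above (2.99% to 4.48%, all genes 8.92% to 20.4%). For D3 against SBM it gave 2 to 12 below (2.99% to 18.5%, all genes 2.48% to 10.6%). There 1 to 8 lay above (1.49% to 12.1%, all genes 1.95% to 10.4%). For D3 against FM it gave 17 to 26 below (25.4% to 38.8%, all genes 13.3% to 20.9%). There 0 to 9 lay above (0% to 13.6%, all genes 11.9% to 19.7%).

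Signs turned for ccl39.2 in D3 against SBM without SBM library 2 (0.86, the highest of −2.00 to 0.86 without 1 library), and for ccl34a.4 without the 3 liver-rich libraries in D3 against SBM (−2.32) and D3 against FM (−1.17). The gene ccl39.2 was at 37.99 CPM in SBM library 2, against 5.71 and 0.311 CPM in the other SBM libraries. For ccl34a.4 only D3 library 3 was left in D3, at 0.791 CPM against 15.4 and 16.2 CPM in D3 libraries 1 and 2. Why these libraries differed was not tested.

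With the replicate block edgeR called 0 genes in each comparison and changed no call. Same-numbered libraries did not deviate together (correlations from −0.578 to 0.519), so the numbers were not taken as pairs.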
